A study of Homo sapiens with 6 samples.

Results

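The HOX genes are the homeobox genes of the HOXA, HOXB, HOXC and HOXD clusters, and they were taken here as every gene symbol made of HOX, a cluster letter and a number. The deposited table held 39 such genes among 25528 symbols, in 4 clusters and with paralogue numbers from 1 to 13. Levels came from RNA-seq libraries made of DU-145/tet-XISTshRNA cells, a line of DU145 castration-resistant prostate cancer cells carrying an shRNA against the long noncoding RNA XIST that doxycycline (DOX) switches on. The 3 vehicle samples received 0.1% DMSO and the 3 DOX samples 500 ng/ml DOX for 7 days. All 6 samples carried the vector and had been selected in puromycin or geneticin, and no sample with a control shRNA and DOX was analysed here, so an effect of DOX itself and an effect of the shRNA cannot be told apart. The cells were grown in triplicate, so p-values measure the spread between cultures of 1 line.

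HOX genes encode transcription factors that give cells their position along the body axis. Within a cluster the genes lie in the order in which they are used from head to tail, with low paralogue numbers in the hindbrain and neck and numbers 9 to 13 in the lower trunk, the urogenital tract and the limbs. Adult tissues and the cell lines made from them keep a part of this code, held by trithorax proteins, which keep genes on, and Polycomb proteins, which keep genes off. In the prostate the posterior genes HOXA13, HOXB13 and HOXD13 are known from its development.

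Values are TPM, which divides reads by gene length and sets the total of each sample to 1000000, so that levels can be compared between genes. The reads counted on genes, recovered from the deposited files, ranged from 5453377 in vehicle replicate 3 to 64573436 in DOX replicate 1, and reads on the 39 HOX genes from 1112 to 16699 in the same libraries. The small RNAs RPPH1, RN7SK, RN7SL1, RN7SL2 and RN7SL3 took 67.5% of the TPM in vehicle replicate 3, 82.6% in DOX replicate 1 and between 74.6% and 77.4% in the other 4 samples, and what they take is missing from the TPM of every other gene. The shRNA target XIST was listed at 0 in all 6 samples, so these files hold no check of its silencing. The translation factor gene EIF4A1, used by every cell, was also listed at 0 throughout, and an exact 0 is therefore given only as a listed value. All 4 epithelial markers (EPCAM, CDH1, KRT8 and KRT18) passed a mean of 1 TPM and summed to between 165 and 269 TPM, whereas the prostate luminal markers KLK3 and FOLH1 were listed at 0.

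The cells expressed a HOXA, HOXB and HOXC code that ran over the whole axis and almost no HOXD. A mean over the 6 samples of at least 1 TPM was reached by 17 of the 39 genes (43.6%, against 45.7% of all symbols), and by 29 of them once the 5 small RNAs were left out of the total. Among these were HOXA2, HOXA3, HOXA5, HOXA6, HOXA10 and HOXA13, then HOXB3, HOXB5, HOXB6, HOXB7 and HOXB9, and HOXC6, HOXC8, HOXC9, HOXC10 and HOXC13. A further 11 genes lay between 0.3 and 1 TPM and the last 11 under 0.3 TPM, including HOXB13, HOXD3, HOXD11 and HOXD12, which were listed at 0 in every sample. With vehicle, the HOXA genes summed to 35.7 ± 7.25 TPM (SD, n = 3), the HOXB genes to 33.4 ± 3.77 TPM, the HOXC genes to 19.3 ± 2.88 TPM and the HOXD genes to 1.56 ± 0.442 TPM. Central genes (paralogue numbers 4 to 8) made up 49.2% of the summed HOX level with vehicle, posterior genes (9 to 13) 27.5% and anterior genes (1 to 3) 23.3%.

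**Figure D1:**
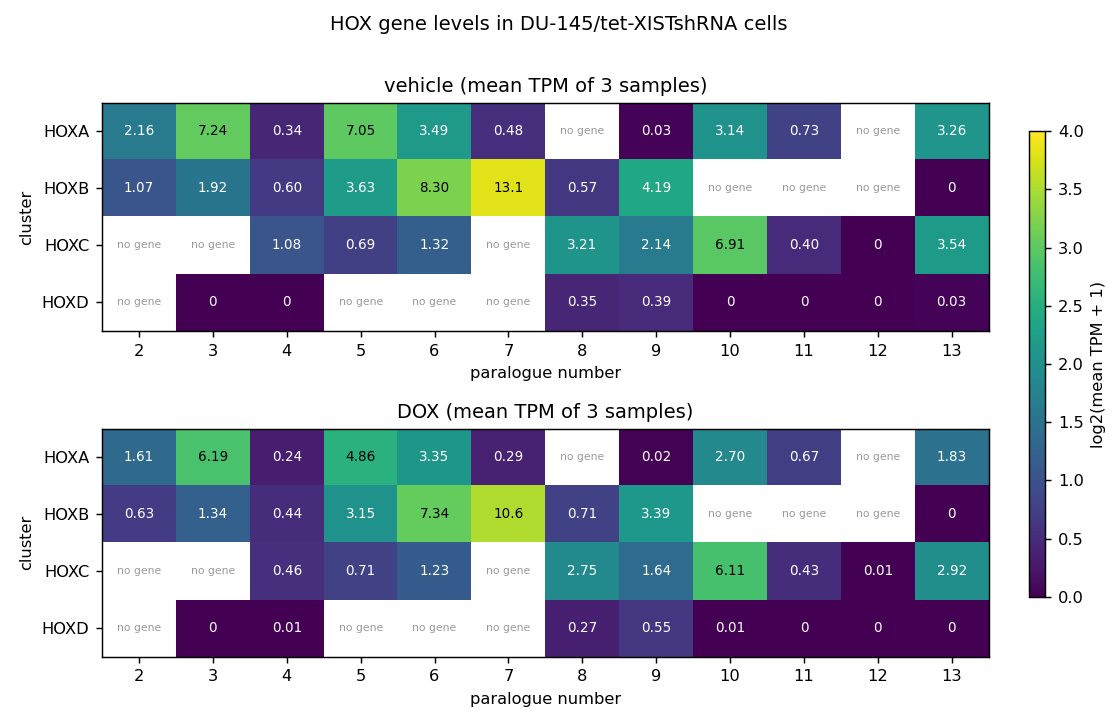
Mean TPM of 3 samples for the HOX genes with paralogue numbers 2 to 13, arranged by cluster (rows) and paralogue number (columns), with vehicle above and DOX below. Colour gives log2(mean TPM + 1) and white fields have no gene. The HOXD row is dark in both panels, HOXB7 is brightest at 13.1 TPM with vehicle, and HOXA7 and HOXA9 are dark between HOXA6 and HOXA10.

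Among the anterior genes HOXA3 lay well above HOXA2 and HOXB3. HOXA3, which patterns the thymus and parathyroid, was at 7.18, 6.41 and 8.13 TPM with vehicle, in the order of replicates 1, 2 and 3 that is kept throughout, and at 5.86, 6.08 and 6.64 TPM with DOX. Its vehicle and DOX samples overlapped, and vehicle replicate 3 held the highest value. HOXA2, which acts in the second pharyngeal arch, was lower, at 2.03, 2.24 and 2.22 TPM with vehicle and 1.29, 1.72 and 1.81 TPM with DOX. HOXB3, the HOXB paralogue of HOXA3, was at 1.68, 1.99 and 2.11 TPM with vehicle and at 0.955, 1.43 and 1.63 TPM with DOX. For HOXA2 and HOXB3 no DOX sample reached the lowest vehicle sample. HOXB2 had 0.683, 0.931 and 1.59 TPM with vehicle and 0.599, 0.684 and 0.606 TPM with DOX, and HOXD1 had 0.677, 0.571 and 1.13 TPM with vehicle and 0.338, 0.779 and 0.329 TPM with DOX, both with overlapping groups. HOXB1, a hindbrain gene, had a single read in the 6 libraries, in DOX replicate 1.

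The central genes held the highest level of all. HOXB7, a thoracic gene much studied in cancer cells, was at 11.3, 13.9 and 14.2 TPM with vehicle and at 9.23, 11.3 and 11.1 TPM with DOX. HOXB6, its neighbour on the chromosome, was at 8.44, 7.32 and 9.15 TPM with vehicle and at 5.91, 8.27 and 7.84 TPM with DOX. HOXB7 lay above HOXB6 in both groups without overlap, whereas 13 of the 16 pairs of neighbours in the order of the 17 levels overlapped in both groups. HOXA5, needed for the lung, was at 4.98, 6.51 and 9.66 TPM with vehicle and at 4.59, 3.84 and 6.15 TPM with DOX. HOXA6, next to it, was at 3.43, 1.96 and 5.09 TPM with vehicle and at 3.47, 2.50 and 4.07 TPM with DOX. The vehicle samples of these 2 genes spread more widely than the DOX samples did, and for HOXA6 vehicle replicate 3 rests on 15 reads. HOXB5 was the steadiest of the group, at 3.46, 3.80 and 3.63 TPM with vehicle and at 2.92, 3.38 and 3.14 TPM with DOX, and no DOX sample reached the lowest vehicle sample. HOXC8, which patterns the lower thorax, was at 2.63, 2.58 and 4.44 TPM with vehicle and at 2.16, 3.04 and 3.07 TPM with DOX. HOXC6, known as a prostate cancer marker, was at 1.65, 1.35 and 0.978 TPM with vehicle and at 1.04, 1.36 and 1.29 TPM with DOX. For HOXC6, unlike most other members, vehicle replicate 3 was the lowest sample.

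The other central genes were weakly expressed. HOXB4, used in blood stem cells, had 0.631, 0.361 and 0.797 TPM with vehicle and 0.245, 0.515 and 0.556 TPM with DOX, next to HOXB5. HOXC4 had 0.931, 0.540 and 1.78 TPM with vehicle and 0.458, 0.470 and 0.454 TPM with DOX, so that its groups were apart, DOX lower. Of all genes with a mean of at least 1 TPM, 30.7% were apart in this direction. After median-of-ratios scaling HOXC4 was at 0.886, 0.487 and 1.26 with vehicle and 0.660, 0.467 and 0.488 with DOX, and the groups overlapped. HOXC5 had 0.756, 0.471 and 0.830 TPM with vehicle and 0.561, 0.934 and 0.642 TPM with DOX. It shares 1084 of its 1611 exonic bases (67.3%) with another annotated gene on its strand, so reads there could belong to either. The groups overlapped for HOXB4 and HOXC5, and vehicle replicate 3 gave only 8 and 9 reads of them. HOXA7 had 0.472, 0.150 and 0.806 TPM with vehicle and 0.200, 0.420 and 0.241 TPM with DOX. HOXD8 had 0.279, 0.237 and 0.520 TPM with vehicle and 0.194, 0.251 and 0.370 TPM with DOX. HOXA4 averaged 0.293 TPM and lay just under the level at which samples are listed. It shares 541 of its 1728 exonic bases (31.3%) with another annotated gene on its strand. HOXD4 had 3 reads, all in DOX replicate 1.

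HOXB8, between HOXB7 and HOXB9 on chromosome 17, had 0.957, 0.290 and 0.453 TPM with vehicle and 0.579, 0.766 and 0.790 TPM with DOX, with overlapping groups. Its mean of 0.639 TPM stood beside means of 11.8 TPM for HOXB7 and 3.79 TPM for HOXB9. HOXB8 mRNA is the classical target of miR-196a, a microRNA whose genes lie within the HOX clusters and which is known to cleave it, and the sequences are shown because reads were counted on the miR-196a gene of the HOXC cluster. Such reads cannot be told apart from those of a longer transcript over the same bases. The mature microRNAs from RefSeq (GRCh38.p14) are given with bases 2 to 8, the seed, in capitals, for miR-196a and miR-196b, which share a seed, and for miR-10a of the HOXB cluster. They are followed by the stretch of the HOXB8 3' UTR that matched miR-196a at 21 of 22 bases, at chr17:48612770-48612791 on the minus strand of GRCh38, with the unmatched base in capitals.
hsa-miR-196a-5p: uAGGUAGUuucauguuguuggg
hsa-miR-196b-5p: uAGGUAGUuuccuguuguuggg
hsa-miR-10a-5p: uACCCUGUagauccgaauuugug
HOXB8 site: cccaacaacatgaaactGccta
An exact match to the miR-196 seed (ACTACCT, mRNA strand only) stood in 8 of 39 annotated HOX 3' UTRs (20.5%), those of HOXA5, HOXA7, HOXA9, HOXB1, HOXB6, HOXB7, HOXB13 and HOXC8, against 7.01% of 19489 UTRs of all genes. The HOXB8 UTR was not among these 8, as the unmatched base of its site lies within the stretch that pairs with the seed. A match to the miR-10a seed (ACAGGGT) stood in 3 of 39, HOXA3 and HOXB3 among them, against 12.6% of all. HOX genes with a miR-196 seed match ranged from a listed 0 (HOXB13) to the highest level of the family (HOXB7). These matches describe the sequences, and no microRNA level per sample was analysed here.

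Among the posterior genes HOXC10 stood highest. HOXC10, active in the lumbar spinal cord and hindlimb, was at 6.96, 6.17 and 7.60 TPM with vehicle and at 5.83, 6.25 and 6.24 TPM with DOX. HOXB9, which patterns the thorax, was at 3.50, 3.32 and 5.77 TPM with vehicle and at 2.87, 3.60 and 3.70 TPM with DOX. HOXC13, a hair follicle gene, was at 2.88, 3.37 and 4.37 TPM with vehicle and at 2.74, 2.72 and 3.30 TPM with DOX. All 3 had overlapping groups, with vehicle replicate 3 as their highest sample. HOXA10, which patterns the uterus and lower vertebrae, was at 3.09, 2.96 and 3.36 TPM with vehicle and at 2.10, 3.15 and 2.87 TPM with DOX. HOXA13, needed for the limb ends and the genitourinary tract, was at 2.12, 3.74 and 3.91 TPM with vehicle and at 1.29, 1.92 and 2.29 TPM with DOX. HOXC9 was at 2.46, 1.97 and 1.99 TPM with vehicle and at 1.51, 1.97 and 1.44 TPM with DOX. The groups overlapped in each, for HOXA13 through vehicle replicate 1, which lay below DOX replicate 3.

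HOXA11, a partner of HOXA10 in the uterus and limb, had 0.827, 0.642 and 0.735 TPM with vehicle and 0.613, 0.862 and 0.527 TPM with DOX. HOXC11 had 0.583, 0.233 and 0.398 TPM with vehicle and 0.485, 0.376 and 0.436 TPM with DOX. HOXD9 had 0.409, 0.441 and 0.327 TPM with vehicle and 0.446, 0.606 and 0.608 TPM with DOX. On the TPM scale it was the only member whose DOX samples all lay above its vehicle samples, and vehicle replicate 3 rests on 3 reads. Of all genes with a mean of at least 1 TPM, 0.223% were apart in this way. After median-of-ratios scaling 10.9% were, HOXA10 and HOXB6 among them, and HOXD9 was apart too. HOXA9, a gene of blood progenitors and leukaemia, was close to silent with 9 reads over the 6 libraries, 3 of them in DOX replicate 1, while HOXA10 beside it had 1908. In the GENCODE annotation HOXA9 shares 397 of its 3033 exonic bases (13.1%) with a readthrough transcript on the same strand, and HOXA10 shares 368 bases with it (9.9%). HOXD13 and HOXD10 had 1 read each and HOXC12 had 3. HOXB13, the HOX gene most closely tied to the prostate, was listed at 0 in all 6 samples.

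The 13th paralogue group thus ran from HOXC13 and HOXA13, at means of 3.23 and 2.55 TPM, to HOXD13 at 0.0142 TPM and HOXB13 at 0. To show what stands before an expressed and a near-silent member of this group, and before the near-silent HOXA9, their promoters (250 bases before the start, RefSeq, GRCh38.p14) are given with each CpG in capitals. They lie at chr7:27200092-27200341 on the minus strand for HOXA13, chr2:176092471-176092720 on the plus strand for HOXD13 and chr7:27165538-27165787 on the minus strand for HOXA9.
HOXA13: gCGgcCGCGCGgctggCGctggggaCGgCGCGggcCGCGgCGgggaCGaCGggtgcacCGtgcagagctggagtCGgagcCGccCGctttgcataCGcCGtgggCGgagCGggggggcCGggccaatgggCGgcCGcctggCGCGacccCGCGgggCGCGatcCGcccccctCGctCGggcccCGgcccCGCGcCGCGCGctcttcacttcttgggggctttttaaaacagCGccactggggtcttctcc
HOXD13: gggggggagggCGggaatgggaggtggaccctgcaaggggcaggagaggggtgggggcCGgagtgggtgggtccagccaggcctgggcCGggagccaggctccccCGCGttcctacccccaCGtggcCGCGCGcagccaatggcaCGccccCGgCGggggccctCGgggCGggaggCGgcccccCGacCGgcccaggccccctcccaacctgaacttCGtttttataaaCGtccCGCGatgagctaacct
HOXA9: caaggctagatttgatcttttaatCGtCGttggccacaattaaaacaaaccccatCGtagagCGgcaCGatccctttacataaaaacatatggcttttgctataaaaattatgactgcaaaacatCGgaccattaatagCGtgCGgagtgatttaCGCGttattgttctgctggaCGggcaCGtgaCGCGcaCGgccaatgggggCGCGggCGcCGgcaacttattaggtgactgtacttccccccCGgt
The HOXA13 stretch held 40 CpG, the HOXD13 stretch 21 and the HOXA9 stretch 20. Over the 27 promoters of the 20 HOX genes found in the table the median was 19 CpG, against 11 over 35116 promoters of all genes. The median was 16 CpG over 12 promoters of genes of at least 1 TPM. It was 20.5 CpG over 8 promoters of genes under 0.1 TPM. Most of the 12 are starts of HOXA3, with 0 to 26 CpG, so these medians do not compare genes. The rest of the 12 were of HOXA2 (8 CpG), HOXA6 (27), HOXA13 (40) and HOXA10 (24 and 19). Whether the number of CpG goes with the level of a gene was not tested. The letters TGATNNAT, the core of sites shared by HOX and PBX proteins, stood on either strand in 11.1% of the 27 HOX promoters, of HOXA2, HOXB1 and HOXD11, against 6.47% of all promoters of this length.

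**Figure D2:**
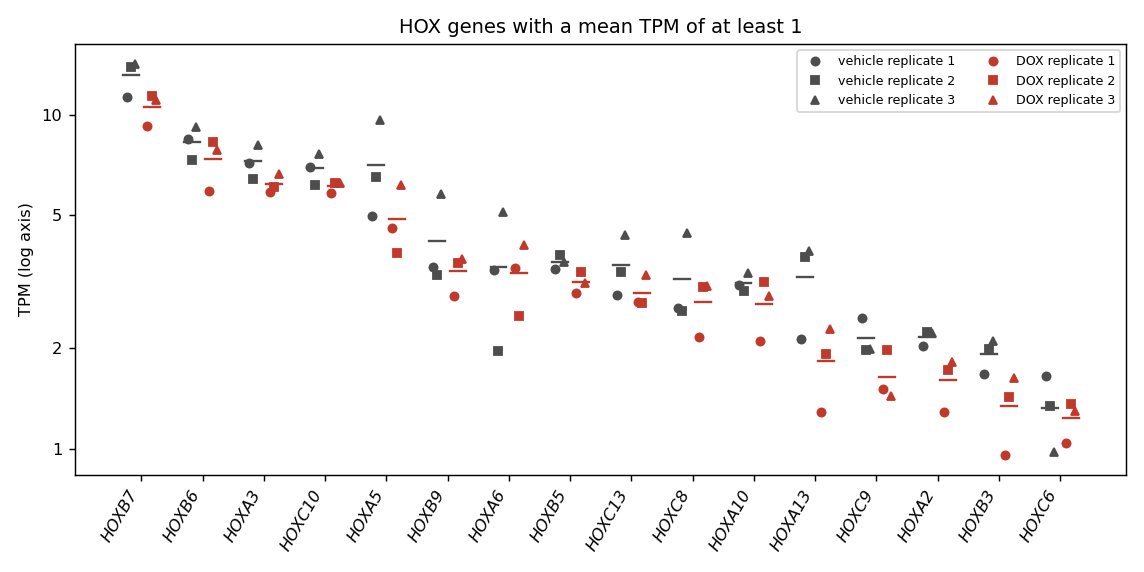
TPM in each sample (log axis) of 16 HOX genes with a mean of at least 1 TPM, in the order of their means. Grey marks vehicle, red marks DOX, the marker shape gives the replicate number and the bar is the mean of 3 samples. Vehicle replicate 3 (grey triangle) was the highest sample for 12 of them and DOX replicate 1 (red circle) the lowest for 11.

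The comparison of DOX with vehicle asks whether the HOX code moved when the shRNA was switched on. No HOX gene was called lower (0 of 17 tested) and none higher (0 of 17) by limma on log2(TPM + 1), at a Benjamini-Hochberg adjusted p under 0.05 and a fold change over 1.5. Among all 11672 genes tested 2.98% were called lower and 0.0257% higher. HOXA13 alone passed an unadjusted p under 0.05, which 29.2% of all genes did downward and 0.206% upward, and voom on recovered reads called 0 HOX genes, as it called 0.00857% of all genes lower and 0% higher. All 17 log2 fold changes were below 0, from -0.58 for HOXA13 to -0.00 for HOXA6, with a median of -0.20. The median over all tested genes was -0.35, and 15 of the 17 HOX genes lay above it. Groups of 3 samples that did not overlap, DOX lower, were found for HOXA2, HOXB3 and HOXB5, which is 3 of 17, against 30.7% of all tested genes, and upward for 0 of 17, against 0.223%.

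HOXA13 had the lowest fold change. Its level was 3.26 ± 0.985 TPM (SD, n = 3) with vehicle and 1.83 ± 0.507 TPM with DOX, a log2 fold change of -0.58 (95% interval -1.01 to -0.14, limma adjusted p = 0.0884), which is -0.23 relative to the median of all genes. It was called without vehicle replicate 1 (-0.78, limma adjusted p = 0.0340), where 10.7% of all genes were called lower, and without DOX replicate 2 (-0.61, limma adjusted p = 0.0490), where 20.3% were. It was called in no other fit that left out 1 library. With the replicate number as a block its limma adjusted p was 0.00969 at the same fold change, which is under 1.5, so it was not called, where 19% of all genes were called lower. HOXA5 followed at -0.44 (95% interval -0.93 to 0.06, limma adjusted p = 0.215) and HOXB3 at -0.33 (-0.72 to 0.06, limma adjusted p = 0.233). HOXB7, the highest member, had -0.29 (-0.79 to 0.21, limma adjusted p = 0.400). The intervals of the other 16 members included 0, and their width does not show an absence of change.

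**Figure D3:**
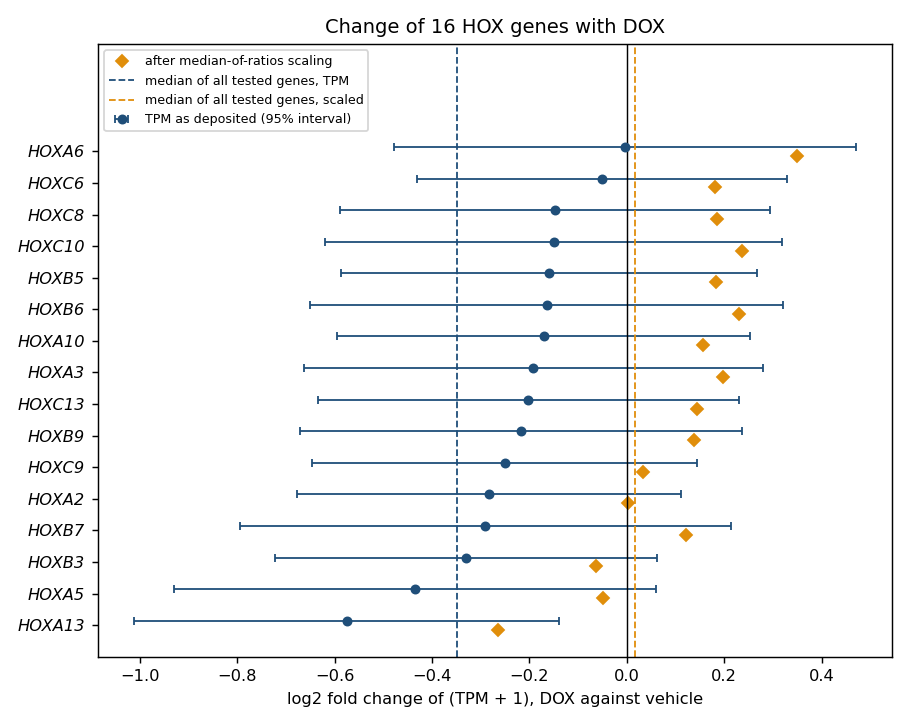
Log2 fold change of (TPM + 1), DOX against vehicle, of 16 HOX genes with a mean of at least 1 TPM. Blue points with 95% intervals are TPM as deposited, orange diamonds are values after median-of-ratios scaling, and dashed lines are the medians of all genes tested (-0.35 and 0.02). HOXA13 lies lowest on both scales, and most other members lie to the right of the median on each.

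The sign of the HOX changes depended on the scale. After scaling by the median of ratios, which sets each sample by its typical gene and not by its total, the median over all genes was 0.02 and over the 17 HOX genes 0.14, with 3 genes below 0 (HOXA5, HOXA13 and HOXB3). On this scale no gene of the whole table was called in either direction, 0% of 11595 by limma. An unadjusted p under 0.05 was reached downward by 7.75% and upward by 8.12% of all genes, and by no HOX gene. HOXA13 was at -0.26 (limma adjusted p = 0.415) and HOXA6 at 0.35 (limma adjusted p = 0.459). HOXA10 had scaled levels of 2.94, 2.67 and 2.38 with vehicle and 3.02, 3.13 and 3.08 with DOX, and HOXB6 had 8.03, 6.60 and 6.48 with vehicle and 8.52, 8.22 and 8.43 with DOX. The groups were apart, DOX higher, for these 2 of 17 genes, against 10.9% of all genes, and apart with DOX lower for 0 of 17, against 9.15%. Without vehicle replicate 3 and DOX replicate 1, the libraries with the lowest and the highest share of small RNAs, 12 of 17 fold changes on the TPM scale were below 0, with a median of -0.08 against -0.12 for all genes.

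The tested HOX transcripts were shorter and richer in G and C than most. Their median exonic length was 2417 bases and their median GC content 54.3%, against 5474 bases and 47.0% over all tested genes. When a spline of each sample's values on GC content and length was removed, the HOX median became -0.02 against a median of 0.00 for all genes, HOXA13 moved to -0.15, and HOXA5 was lowest at -0.20 (limma adjusted p of all 17 between 0.705 and 0.998). With this correction 5 of the 17 genes lay above the median of all genes, where 15 had done so before it.

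The balance between clusters did not separate the groups. The HOXA share of the summed HOX TPM was 38.3%, 38.7% and 41.5% with vehicle and 38.0%, 35.1% and 41.3% with DOX. The HOXB share ran from 35.5% to 39.3% with vehicle and from 36.2% to 39.9% with DOX, and the HOXC share from 20.5% to 22.9% and from 20.8% to 23.5%. The HOXD share was between 1.54% and 1.95% with vehicle and between 1.58% and 2.21% with DOX. Each of the 4 shares overlapped between the groups. Summed over all 39 genes, the level was 82.4, 81.3 and 106 TPM with vehicle and 63.1, 75.2 and 81.0 TPM with DOX, so that the groups were apart, DOX lower, on the scale on which the median gene was also lower. Central genes made up 49.8% of the sum with DOX, posterior genes 27.7% and anterior genes 22.5%.

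**Figure D4:**
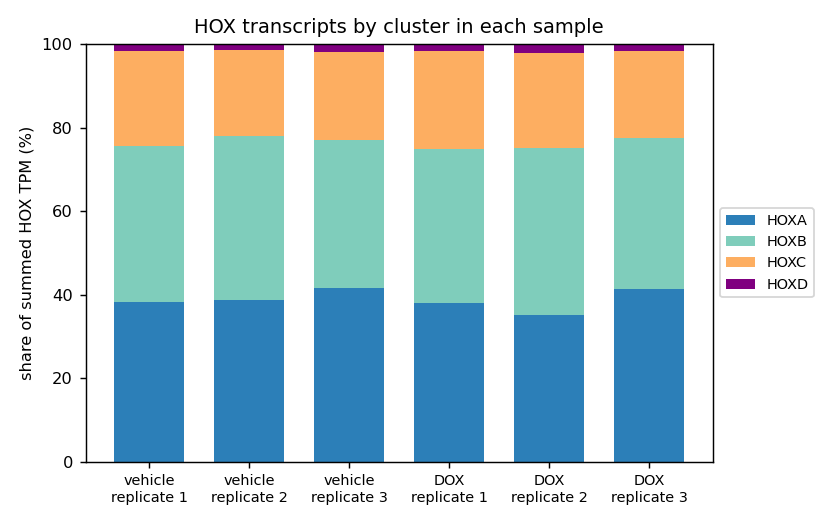
Share of the summed HOX TPM (%) held by each cluster in each of the 6 samples, as stacked bars. HOXA and HOXB hold the larger part in every sample and HOXD at most 2.21%.

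Members under 1 TPM did not enter the main fit. The fit without a filter tested 35 HOX genes and the fit without the 5 small RNAs 29, and neither called a HOX gene. Without the small RNAs HOXC4 had the lowest log2 fold change (-0.535) and HOXB8 the highest (0.558). Members under 1 TPM were compared by exact permutation (two-sided), where 3 against 3 samples allow no p under 0.1. HOXC4 differed by -0.47 on the log2(TPM + 1) scale, DOX against vehicle, and HOXD9 by 0.16, each at that smallest exact p of 0.1. The other 9 members of between 0.3 and 1 TPM had exact p from 0.2 to 1. HOXC4 shares 484 exonic bases on its strand with HOXC6, which lay at -0.05, so reads there could belong to either. Of the 39 genes 8 share exonic bases on their strand with another HOX gene, among them HOXB3 and HOXB6 (433 bases).

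The noncoding RNAs of the clusters are transcribed among the HOX genes, many of them from the opposite strand. Of 23 in the list 17 were in the table and 7 were tested, and limma called 0 of them, with a median log2 fold change of -0.30 against -0.35 for all genes, and of 0.00 against 0.02 after median-of-ratios scaling. Among the 7, HOXC-AS3 rests on 14 reads over the 6 libraries. It ran from 0 TPM in vehicle replicate 2 to 4.46 TPM, on 2 reads, in vehicle replicate 3. HOTAIRM1, which lies beside HOXA2 at the anterior end of its cluster and is known from myeloid cells, was the most abundant, at 20.2, 24.7 and 39.2 TPM with vehicle and at 12.0, 15.4 and 18.5 TPM with DOX. The highest DOX sample lay under the lowest vehicle sample, and its log2 fold change of -0.80 (95% interval -1.36 to -0.24, limma adjusted p = 0.0708) was further from 0 than that of any HOX gene tested. It was called with the replicate number as a block (limma adjusted p = 0.00112), where 19% of all genes were called lower, and also without vehicle replicate 1 (-1.0, limma adjusted p = 0.0370) and without DOX replicate 2 (-0.81, limma adjusted p = 0.0424). It was not called after median-of-ratios scaling (-0.37, limma adjusted p = 0.297).

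HOXA10-AS, antisense to HOXA10 and HOXA9 and named here after its values were seen, was at 2.15, 2.34 and 2.19 TPM with vehicle and at 1.34, 1.23 and 1.31 TPM with DOX. On the TPM scale the 2 groups did not overlap, and vehicle replicate 3 rests on 11 reads. The log2 fold change was -0.49 (95% interval -0.88 to -0.11, limma adjusted p = 0.0954). After median-of-ratios scaling it was -0.21 (limma adjusted p = 0.480). HOXA10 itself, which overlaps the HOXA10-AS exons by 608 bases, was at -0.17. HAGLR, antisense to HOXD1 and HOXD3, was at 3.48, 3.28 and 4.77 TPM with vehicle and at 2.30, 3.12 and 3.36 TPM with DOX, above every HOXD gene. HOXC-AS1 was at 2.06, 1.45 and 4.72 TPM with vehicle and at 3.09, 2.42 and 5.54 TPM with DOX. Both had overlapping groups. HOTAIR, the HOXC transcript known to act with Polycomb proteins, was under the minimum. It was at 0.801, 1.13 and 1.59 TPM with vehicle and at 0.574, 0.573 and 0.438 TPM with DOX. Its groups did not overlap on the TPM scale (exact permutation p = 0.1, the smallest possible), where 30.7% of all tested genes were apart, DOX lower. After median-of-ratios scaling the HOTAIR groups overlapped. HOTTIP, which lies beside HOXA13 and is known to act with the trithorax complex, had 52 reads in all.

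**Figure D5:**
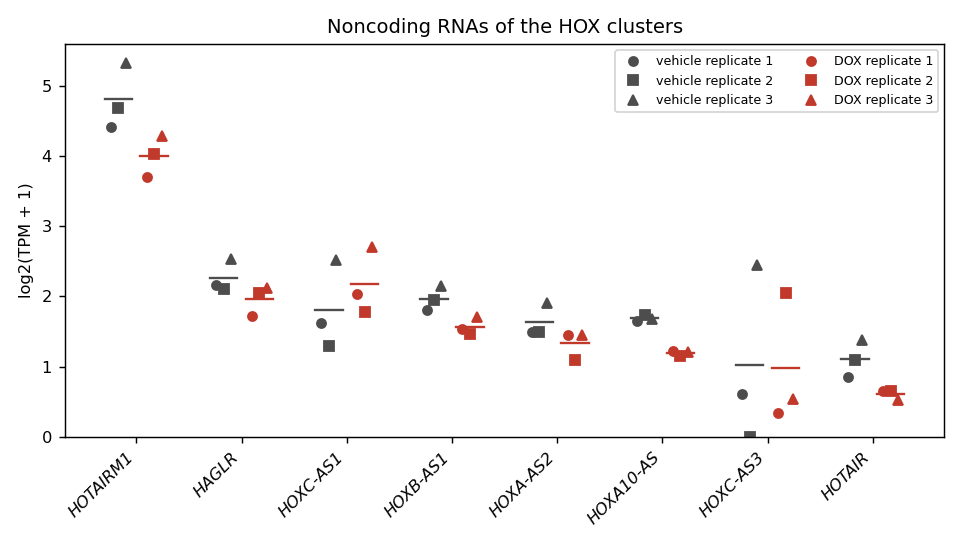
Log2(TPM + 1) in each sample of the 7 tested noncoding RNAs of the HOX clusters and of HOTAIR, in the order of their means. Grey marks vehicle, red marks DOX, the marker shape gives the replicate number and the bar is the mean of 3 samples. HOTAIRM1, HOXB-AS1, HOXA-AS2, HOXA10-AS and HOTAIR have groups that do not overlap, DOX lower, and the other 3 overlap. Of the 7 tested, 4 were thus apart on the TPM scale, where 30.7% of all tested genes were. After median-of-ratios scaling 9.15% of all genes were apart in this direction. On that scale the groups of HOTAIRM1, HOXB-AS1, HOXA-AS2, HOXA10-AS and HOTAIR overlapped.

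Genes that act with or on HOX genes were followed as lists, of which 50 genes were tested in all, the noncoding RNAs included, and limma called 0 lower and 0 higher (14 lower and 0 higher at an unadjusted p under 0.05, against 29.2% of all genes lower, and 0 by voom on recovered reads). The medians of log2 fold changes that follow stand beside -0.35 for all tested genes on the TPM scale and 0.02 after median-of-ratios scaling. The TALE cofactors, homeodomain proteins that bind DNA together with HOX proteins, had 5 of 9 members tested and a median of -0.44 (-0.09 after that scaling). Among them PBX3 was at 23.4 ± 4.42 TPM (SD, n = 3) with vehicle and 15.9 ± 3.04 TPM with DOX, MEIS2 at 5.78 ± 1.01 and 4.03 ± 1.12 TPM, and PKNOX1 at 3.67 ± 0.608 and 2.48 ± 0.427 TPM. All 11 trithorax group genes were tested, with a median of -0.47 (-0.09 after scaling), and their most abundant members were PSIP1 at 33.3 ± 4.51 and 21.9 ± 7.89 TPM, ASH1L at 24.9 ± 5.13 and 15.1 ± 4.98 TPM and DPY30 at 22.1 ± 4.02 and 15.5 ± 4.68 TPM. Of 15 Polycomb group genes 11 were tested, with a median of -0.29 (0.11 after scaling), led by SUZ12 at 38.4 ± 7.97 and 23.2 ± 9.03 TPM, EZH2 at 24.7 ± 6.57 and 16.8 ± 5.70 TPM and RNF2 at 23.7 ± 6.94 and 16.8 ± 4.66 TPM. Each of these 6 genes lay above HOXB7, the highest HOX gene, in both group means.

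Retinoic acid switches on HOX genes in the embryo, and 6 of 14 retinoid genes were tested, with a median of -0.22 (0.15 after median-of-ratios scaling). ALDH1A3, which makes retinoic acid, was at 16.2 ± 2.92 and 11.7 ± 2.28 TPM with vehicle and DOX, and the receptors RARG at 5.67 ± 1.10 and 5.22 ± 0.259 TPM and RARA at 5.81 ± 0.865 and 4.81 ± 0.564 TPM. Of 10 ParaHox and HOX-linked homeobox genes none reached 1 TPM and 6 were listed at 0. The genes next to the clusters had 10 of 15 members tested and a median of -0.63 (-0.19 after scaling), and their most abundant were HNRNPA1 beside HOXC at 199 ± 16.2 and 160 ± 49.9 TPM, HIBADH beside HOXA at 127 ± 28.6 and 83.0 ± 19.0 TPM and HNRNPA3 near HOXD at 34.9 ± 5.94 and 22.9 ± 8.997 TPM. With the replicate number as a block 11 of the 50 genes were called lower (22%, against 19% of all genes): HOTAIRM1, PSIP1, KDM6A, ASH1L, SUZ12 and 6 neighbours, SKAP2, HNRNPA3, CBX5, LNPK, CALCOCO1 and HIBADH. Without vehicle replicate 1, 3 of the 50 were called lower, against 10.7% of all genes, and without DOX replicate 2, 10 of the 50, against 20.3%. After median-of-ratios scaling with the same block 0 of the 50 were called, as were 0 of all genes.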

How the data were processed

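RNA-seq of 3 vehicle and 3 DOX cultures of DU-145/tet-XISTshRNA cells was used, grouped by the sample labels (day of treatment from the study's methods). The authors prepared libraries with a stranded mRNA kit, aligned with STAR against GRCh38 and deposited TPM by gene symbol. How reads were counted, and whether by strand, is not given in the sources used here, and 20 HOX genes have an antisense gene over an exon. The deposited DESeq2 table also holds fold changes and p-values of the authors, which were not used, and the authors' mean of normalized counts, a signal pooled over all samples. From this mean and TPM, reads per gene were recovered (99.1% of low values within 0.1 of a whole read, against 20% by chance). DOX was compared with vehicle by limma (3.58.1, R 4.3.3; trend) on log2(TPM + 1) for genes with a mean of at least 1 TPM over 6 samples, with Benjamini-Hochberg adjustment over all of them. Alternatives were a pseudocount of 0.1, no filter, other scalings, voom on recovered reads, a replicate block, a spline correction (5 degrees of freedom) for GC content and length from GENCODE 44 (90.3% of symbols matched) and leaving out libraries. Same-numbered samples deviated together most clearly for replicate 1 (r = 0.57 on the TPM scale). For replicates 2 and 3 r was 0.24 and 0.21, close to 0.19 for vehicle replicate 2 with DOX replicate 3. For vehicle replicate 3 with DOX replicate 2 it was 0.08. The pairing used in the block rests on these correlations alone. The fits and the recovery were tested on simulated data. All simulated samples came from a shared mean profile, apart from genes changed on purpose. Neither a replicate effect nor the spread in small RNA share was built in, so the test does not cover them. Promoter and microRNA sequences are from RefSeq. No promoter was given for HOXA5, HOXB2, HOXB3, HOXB4, HOXB5, HOXB6, HOXB7, HOXB8, HOXB9, HOXB13, HOXC6, HOXC8, HOXC9, HOXC10, HOXC11, HOXC12, HOXC13 and HOXD9. Withheld items, a member among them, are not reported here. The members, lists and tests were chosen with earlier results of these data known. Genes of at least 1 TPM are given in every sample, as are those of 0.3 to 1 TPM, and of each list the called members or the 3 most abundant tested ones.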

Additional observations from a re-analysis of the deposited data

Results flagged for a closer look

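Transcripts of microRNA genes of the HOX clusters appear in data that no comparison above uses. MIR196A2, at chr12:53991738-53991847 on the plus strand of GRCh38 and within the span of HOXC6, had an authors' mean normalized count of 135.6 over all samples, and MIR10A, in the HOXB cluster at chr17:48579838-48579947 on the minus strand, had 2.35. Both stand in the deposited table of means and in no column of TPM, so values per sample were not analysed here and reads of a longer transcript over the same bases cannot be told apart from the microRNA.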

How the results depend on the processing

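The calls of HOX genes kept their side of the threshold in every alternative run but the fits that left out 1 library, where the number called lower ranged from 0 to 1 (HOXA13, without vehicle replicate 1 or DOX replicate 2) and the number called higher was 0 throughout. List genes called lower ranged from 0 to 10 when 1 library was left out (3 without vehicle replicate 1, 10 without DOX replicate 2) and came to 11 with the replicate block; the block changed no other call than those named in the report. Over all genes, calls went from 348 lower and 3 higher to 2217 and 15 with the block, 46 and 2 with a pseudocount of 0.1, 0 and 0 after median-of-ratios scaling, without the filter, without the 5 small RNAs or with the GC and length correction, 1 and 0 with voom, 259 and 170 with voom and the block, 0 and 0 without vehicle replicate 3, 1242 and 23 without vehicle replicate 1, and 2378 and 11 without DOX replicate 2. The number of HOX genes expressed was 17 at a mean of 1 TPM, 24 at 0.5 TPM, 6 at 5 TPM, 19 over the vehicle samples alone and 29 once the 5 small RNAs were left out of the total; it was 17 without any 1 library. Fits with the GC correction on voom with the block, and without vehicle replicate 3 and DOX replicate 1 together, were added after the data were seen. Fold changes of single genes turned positive as follows, and the cause was not tested beyond what each setting changes. After median-of-ratios scaling, with or without the block, log2 fold changes were HOXA2 0.00, HOXA3 0.20, HOXA6 0.35, HOXA10 0.16, HOXB5 0.18, HOXB6 0.23, HOXB7 0.12, HOXB9 0.14, HOXC6 0.18, HOXC8 0.19, HOXC9 0.03, HOXC10 0.24 and HOXC13 0.14. Without the 5 small RNAs they were HOXA3 0.13, HOXA6 0.34, HOXA10 0.11, HOXB5 0.14, HOXB6 0.17, HOXB7 0.04, HOXB9 0.08, HOXC6 0.22, HOXC8 0.15, HOXC10 0.18 and HOXC13 0.09. With voom they were HOXA3 0.23, HOXA5 0.03, HOXA6 0.67, HOXA10 0.17, HOXB5 0.22, HOXB6 0.24, HOXB7 0.12, HOXB9 0.25, HOXC6 0.23, HOXC8 0.31, HOXC9 0.04, HOXC10 0.29 and HOXC13 0.24. With voom and the replicate block they were HOXA3 0.22, HOXA5 0.01, HOXA6 0.50, HOXA10 0.16, HOXB5 0.22, HOXB6 0.22, HOXB7 0.12, HOXB9 0.22, HOXC6 0.16, HOXC8 0.28, HOXC9 0.00, HOXC10 0.27 and HOXC13 0.22. With the GC and length correction, with or without the block, they were HOXA6 0.06, HOXA10 0.01, HOXC6 0.17, HOXC8 0.11 and HOXC10 0.03, and on voom with the block and this correction HOXA6 0.14, HOXC8 0.17 and HOXC10 0.05. Without vehicle replicate 3 and DOX replicate 1 they were HOXA6 0.22, HOXB6 0.03, HOXB9 0.08 and HOXC8 0.17. HOXA6 was 0.01 with a pseudocount of 0.1, and leaving out 1 library gave HOXA6 from -0.27 to 0.25, HOXC6 from -0.16 to 0.05, HOXC8 from -0.25 to 0.05 and HOXB9 from -0.33 to -0.01. Vehicle replicate 3 limits precision, with 15 reads of HOXA6 and 1112 reads over all HOX genes.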
